A study of Mus musculus with 6 samples.

Results

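Dual-specificity phosphatases (DUSP), Sprouty proteins (SPRY) and Spred proteins (SPRED) are inhibitors of the MAP kinase routes, and several of them act as negative feedback. The genes were taken by name: every array row with a single gene symbol made of DUSP, SPRY or SPRED and a number, with the row of highest mean signal for each symbol. This gave 31 genes, 24 DUSP, 4 SPRY and 3 SPRED, of 18630 genes with a single symbol. They occupied 39 of 21448 array rows with values. The ERK phosphatases DUSP4, DUSP5, DUSP6, DUSP7 and DUSP9 were set against the other 26.

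RNA levels were read on single-channel arrays in 6 libraries. Their labels describe subcutaneous tumours of the mouse lung cancer line LLC (Lewis lung carcinoma), grown from 1000000 cells given in Matrigel at the left flank. In all, 3 libraries were labelled control and 3 anti-PD-1. Per the labels' protocols, mice were given 250 µg of anti-PD-1 antibody, which blocks a T cell checkpoint receptor, or the same dose of an IgG2a isotype control, by intraperitoneal injection once in 3 days. The labels give neither the strain nor the age of the mice, and the design text of the series speaks instead of LLC cells that survived 7 days of treatment and of cells without treatment. Whether replicates are separate animals is not stated, so the p-values below reflect a spread between samples that may be only technical.

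Activated receptor tyrosine kinases load RAS with GTP, which starts a relay of RAF, MEK and ERK kinases. Active ERK switches on genes that restrain it. DUSP proteins remove the activating phosphates from MAP kinases, each with its own preference for ERK, JNK or p38, whereas Sprouty and Spred proteins act upstream, between the receptor and RAF. RNA of several of these genes is short-lived and follows ERK activity closely in many tumour lines.

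The deposited table has a pair of properties that limit every value below. The headers name a mouse array, yet the symbols and accessions are human: 19859 rows carry human Ensembl transcripts, and of 30 genes of the family with a chromosome in the file, 19 lie on another chromosome than the mouse gene of that name. The letters C and P of the authors' averages are also exchanged relative to the signals: for all 31 genes the averages matched the signals of the opposite letter. Directions below follow the sample labels, and should the averages be lettered correctly, every direction turns round. None of the 31 rows was among 111 rows of the table whose deposited averages or SDs fit their signals under neither lettering.

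Library medians lay between 7.71 and 7.77 on the log2 scale. Across rows (not independent replicates), correlations between libraries ran from 0.9955 to 0.9963 within groups and from 0.9808 to 0.9823 between them. Marker lists of other cell types were mostly dim. A mean signal under 5.085, the first quartile of all rows, was found for 5 of 6 T cell markers, 3 of 6 macrophage markers, 3 of 4 neutrophil markers, 4 of 5 endothelial markers and 1 of 3 B cell markers. No marker can be at 0 on this scale, and CD3D, CD3G and CD8A were among the dim ones. Of 6 fibroblast markers 2 rose (14.7% of all rows did), COL1A2 by 3.15 and PDGFRB by 1.26. COL1A1 (0.36), DCN (0.03), LUM (0.92) and PDGFRA (0.21) did not pass. The mean signal of the fibroblast list, COL1A2 included, was between 7.14 and 7.35 in control and between 8.16 and 8.30 in anti-PD-1 libraries. Of the other lists, CD14 (1.19) and S100A8 (0.29) rose, while CD4 (-0.46) and CD79A (-1.37) fell. S100A8 and CD4 had mean signals under 5.085 in both groups, so their calls concern dim rows. Among epithelial markers KRT7 (0.44) and KRT8 (0.30) rose and EPCAM fell (-0.60), and 5 of 6 lay above the median of all rows. The part of these markers in the results below was not tested. In bulk material, fewer cells of a type and less RNA per cell cannot be told apart.

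Promoters of 3 members are shown because the letters of a known response element stand in them and the members changed between groups, in opposite directions. Dusp13 also holds a motif of those searched, but DUSP13 did not change past the threshold and its promoter is not shown. The choice thus followed the results, and whether a motif goes with a direction was not tested. They are the 150 bases before the start of the mouse gene in RefSeq (GRCm38.p6), 5′ to 3′ on the strand of the gene, with the matches in capitals. Dusp5 lies at chr19:53528995-53529144 on the plus strand, Dusp1 at chr17:26508473-26508622 on the minus strand and Dusp8 at chr7:142095285-142095434 on the minus strand.
Dusp5: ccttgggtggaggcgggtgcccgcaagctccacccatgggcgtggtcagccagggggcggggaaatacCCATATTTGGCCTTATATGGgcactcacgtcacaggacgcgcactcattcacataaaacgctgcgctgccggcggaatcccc
Dusp1: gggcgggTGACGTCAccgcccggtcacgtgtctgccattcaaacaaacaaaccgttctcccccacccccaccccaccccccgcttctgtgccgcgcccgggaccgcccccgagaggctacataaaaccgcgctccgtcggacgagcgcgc
Dusp8: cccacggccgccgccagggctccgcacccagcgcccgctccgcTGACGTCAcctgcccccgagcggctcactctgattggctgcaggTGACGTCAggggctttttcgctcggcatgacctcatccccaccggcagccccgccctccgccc
The capitals in Dusp5 are a pair of adjoining CArG boxes, the motif of serum response factor, and those in Dusp1 and Dusp8 are the cyclic AMP response element TGACGTCA.

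Motifs were searched on both strands of the window from 250 bases before to 50 after the start. Of 31 members 23 had such a window in the table. A CArG box was in 1 of these, Dusp5, and in 1.81% of 27025 genes. The cyclic AMP response element was in 2 of the 23, Dusp1 and Dusp8, and in 2.03% of all genes. The AP-1 letters TGAGTCA were in 1 of the 23, Dusp13, and in 5.95% of all genes, and the ETS letters CCGGAAGT were in none of the 23 and in 4.31% of all genes. No 2 of these motifs overlapped in a printed sequence, and a match is a description of the letters, not of a bound site.

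The first question was how the family as a whole differed between the groups. Of 31 members 19 passed the adjusted threshold of 0.05 in limma (61.3%), against 29.8% of all rows. In anti-PD-1 libraries 7 members rose, against 14.7% of all rows, and 12 fell, against 15.1% of all rows. The median size of the difference, whatever its sign, was 0.62 on the log2 scale over members and 0.24 over all rows. Past the threshold and at least 2-fold apart were 12 members, against 7.66% of all rows. Of these 8 fell and 4 rose, where falls and rises of that size made up 3.63% and 4.03% of all rows. The 3 libraries of each group did not overlap in 22 members, 9 higher and 13 lower, against 43.5% of all rows.

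**Figure D1:**
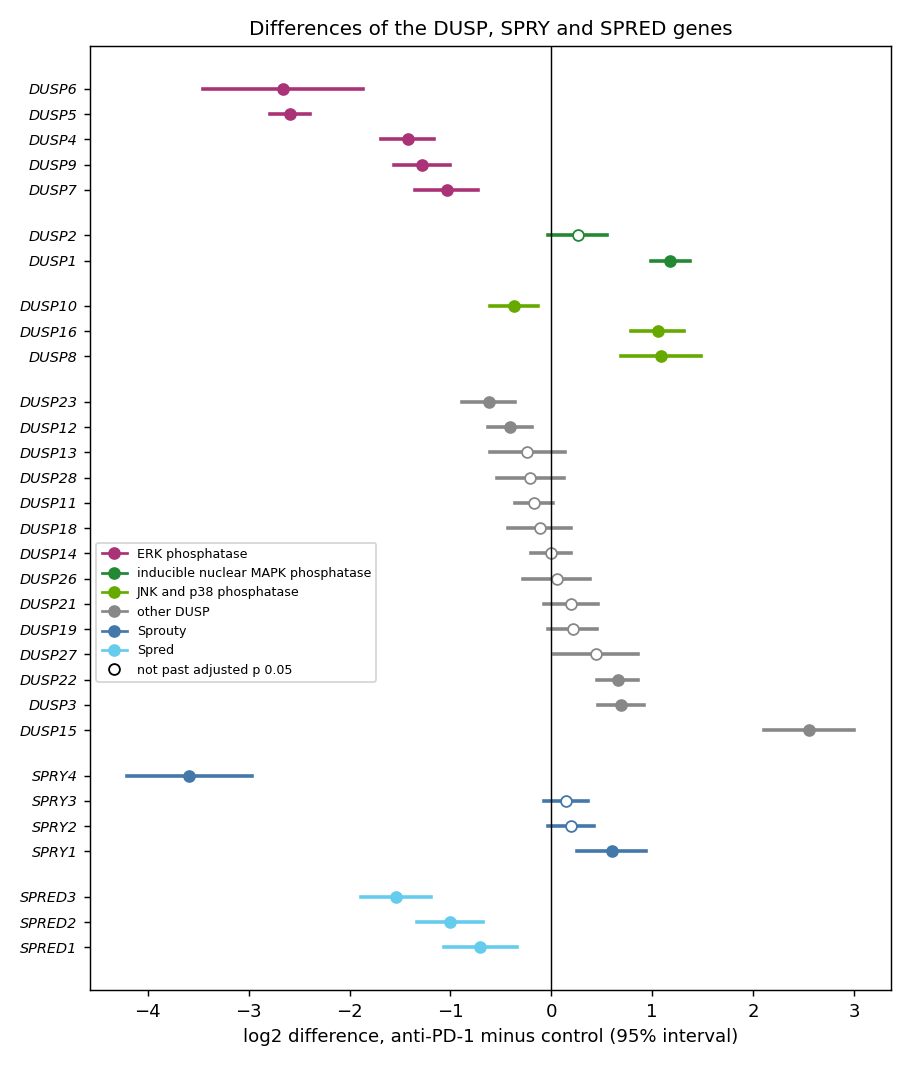
Log2 difference, anti-PD-1 minus control, for each of the 31 members with its 95% interval from limma, grouped by role (filled points passed an adjusted p of 0.05). The 5 ERK phosphatases and 3 Spred genes all lie to the left of 0, and SPRY4 (-3.59) and DUSP15 (2.55) are the outermost points.

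The ERK phosphatases fell, all 5 of them, by differences from -1.04 to -2.66, with a median of -1.42 beside 0.01 over all rows. Lower calls made up 15.1% of all rows. Averaged over the 5 genes, the log2 signal was between 10.14 and 10.22 in control libraries and between 8.27 and 8.54 in anti-PD-1 libraries. Of the other 19 DUSP genes 6 rose (14.7% of all rows did), 3 fell, a share near the 15.1% of all rows, and 10 did not pass, with a median of 0.20. Their average signal was between 8.26 and 8.30 in control and between 8.56 and 8.64 in anti-PD-1 libraries. With the Sprouty and Spred genes included, the other 26 members had 7 rises and 7 falls, against 14.7% and 15.1% of all rows, and a median of 0.10. Among those falls 3 were at least 2-fold, as in 3.63% of all rows. No test was made of the contrast between the ERK phosphatases and either set of other genes, since all were chosen with results of these data known.

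DUSP6 encodes the cytoplasmic phosphatase most selective for ERK, and its RNA is widely used as a readout of ERK activity. Its log2 signal was 8.51, 8.70 and 8.67 in control replicates 1 to 3 and 5.84, 5.31 and 6.76 in anti-PD-1 replicates 1 to 3. The difference was -2.66 ± 0.33 (SE, adjusted p = 0.00122), a 6.31-fold lower mean. Groups stood apart, but anti-PD-1 libraries spread widely (SD 0.73, n = 3), more than in any other member, and replicate 3 was the highest of them. With 1 library left out at a time the difference ranged from -3.05, without that library, to -2.33, without anti-PD-1 replicate 2. The file places DUSP6 on chromosome 12 from 89347232 to 89353271, in coordinates whose build is unsettled. The mouse gene of that name is on chromosome 10, so this is not its position.

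DUSP5 encodes a nuclear phosphatase that acts on ERK and holds it in the nucleus. Its signals were 11.34, 11.42 and 11.48 in control and 8.78, 8.86 and 8.83 in anti-PD-1 libraries, tight within each group. The difference of -2.59 ± 0.08 (adjusted p = 8.66e-06) was 6.02-fold. The file places DUSP5 on chromosome 10 from 110497838 to 110511544, in the same unsettled coordinates, whereas the mouse gene is on chromosome 19. The promoter of that mouse gene is the one shown above with a pair of CArG boxes.

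DUSP4, the other nuclear and inducible member of this set, had signals of 11.48, 11.22 and 11.21 in control and of 9.94, 9.93 and 9.77 in anti-PD-1 libraries (difference -1.42 ± 0.11, adjusted p = 0.000139). DUSP9, a cytoplasmic phosphatase best known from placenta, had 10.98, 11.10 and 11.10 against 9.62, 9.98 and 9.73 (-1.28 ± 0.12, adjusted p = 0.000263). DUSP7, a close relative of DUSP6, had 8.39, 8.66 and 8.59 against 7.65, 7.28 and 7.60 (-1.04 ± 0.13, adjusted p = 0.00128). In each of the 5 genes the highest anti-PD-1 library lay below the lowest control library, as in 21.9% of all rows. All 5 stayed past the threshold when any 1 library was left out, with adjusted p between 0.000111 and 0.00711.

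**Figure D2:**
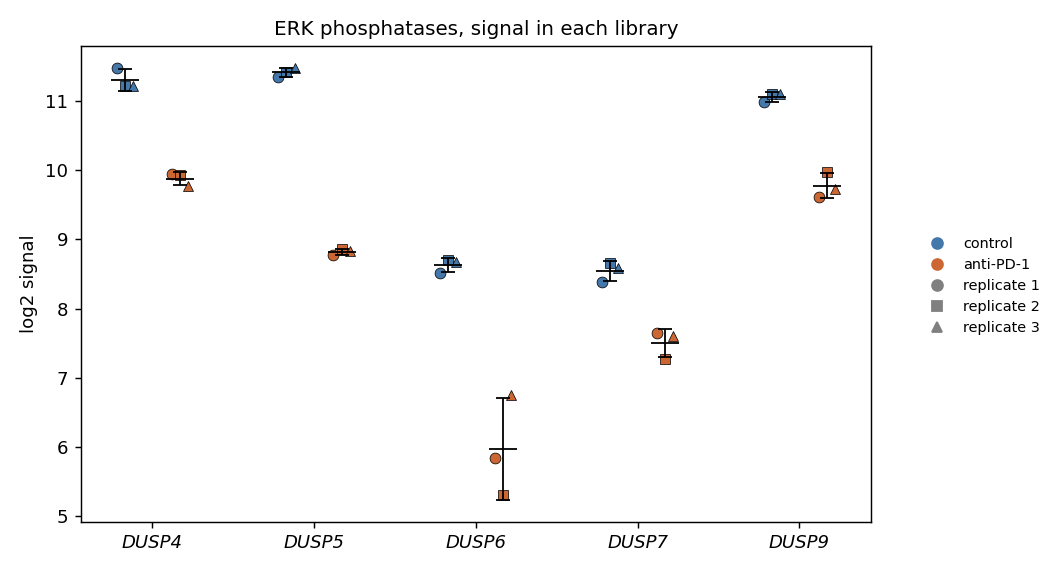
Log2 signal of the 5 ERK phosphatases in each of the 6 libraries (points, shape by replicate number) with the group mean and SD (bars). Every anti-PD-1 point lies below every control point of the same gene, and DUSP6 has the widest spread, from 5.31 to 6.76 in anti-PD-1 libraries; levels are not comparable between genes.

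Of the 5 MAP kinase phosphatases proper that were not set among the ERK phosphatases 3 rose, 1 fell and 1 did not pass, beside 29.8% of all rows called. DUSP1, the immediate early nuclear phosphatase that acts on p38 and JNK as well as ERK, had signals of 10.37, 10.45 and 10.48 in control and 11.61, 11.57 and 11.66 in anti-PD-1 libraries. It rose by 1.18 ± 0.08 (adjusted p = 9.38e-05). DUSP2, grouped with DUSP1 as a nuclear inducible phosphatase, had signals of 7.96, 8.32 and 8.12 against 8.26, 8.44 and 8.48. These groups overlapped, and the difference of 0.26 ± 0.12 did not pass (adjusted p = 0.165, 95% interval -0.03 to 0.55).

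Of the 3 phosphatases that prefer JNK and p38, DUSP8 and DUSP16 rose and DUSP10 fell. DUSP8 had signals of 4.43, 4.96 and 4.93 in control and 5.98, 5.68 and 5.92 in anti-PD-1 libraries (1.09 ± 0.17, adjusted p = 0.00298). Its control signals all lay below the first quartile of all rows (5.085), so the rise starts from a level not shown to be above background. DUSP16 had 9.54, 9.45 and 9.42 against 10.67, 10.56 and 10.34 (1.05 ± 0.11, adjusted p = 0.000511). Both stood apart between groups in each library, higher in anti-PD-1, as in 21.7% of all rows.

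The file held 7 rows named DUSP16, of which 6 have no position, including the brightest, used above. All 7 had a positive difference and 5 passed the threshold. The single row with a chromosome gave 1.00 ± 0.08 (adjusted p = 0.00017), and the 2 rows that did not pass gave 0.42 and 0.32.

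DUSP10, also a phosphatase of JNK and p38, was lower by a small amount, with signals of 11.90, 11.91 and 11.74 in control and 11.47, 11.60 and 11.38 in anti-PD-1 libraries (-0.37 ± 0.10, adjusted p = 0.0316). That call was lost without control replicate 1 or 2 or anti-PD-1 replicate 1 or 3, where the adjusted p was between 0.0838 and 0.101.

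The other 14 DUSP genes are atypical or lie outside the MAP kinase phosphatases proper, and 3 of them rose, 2 fell and 9 did not pass. The 35.7% called is near the 29.8% of all rows. DUSP15, a small myristoylated phosphatase studied in oligodendrocytes, had signals of 5.47, 5.82 and 6.12 in control and 8.40, 8.12 and 8.55 in anti-PD-1 libraries. The difference of 2.55 ± 0.19 (adjusted p = 0.000115) was the largest rise among the rows chosen. A second row of DUSP15 did not share it: its signals were 6.43, 6.87 and 6.85 against 6.96, 7.00 and 6.75 (0.19 ± 0.15, adjusted p = 0.403). The first row was dimmer in every control library and was chosen through its anti-PD-1 signals, so the choice by highest mean favoured the rise. The rows disagree, and the rise belongs to 1 of 2 measurements of this gene.

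DUSP3, a phosphatase of ERK and JNK that is present in most cells, had signals of 12.66, 12.90 and 12.84 in control and 13.46, 13.54 and 13.48 in anti-PD-1 libraries (0.69 ± 0.10, adjusted p = 0.00185). DUSP22, which acts on the JNK route, had 9.18, 9.29 and 9.34 against 9.94, 9.90 and 9.94 (0.66 ± 0.09, adjusted p = 0.00139). DUSP23, a small atypical phosphatase, had 12.16, 12.19 and 12.04 against 11.67, 11.52 and 11.34 and fell (-0.62 ± 0.11, adjusted p = 0.00578). Groups did not overlap in any of these 3 genes, as in 43.5% of all rows.

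DUSP12, an atypical phosphatase with a zinc-binding domain, fell by 0.41 on the log2 scale (adjusted p = 0.0157), a call that missed the threshold without control replicate 3 or anti-PD-1 replicate 1 or 2 (adjusted p between 0.0532 and 0.0552). The 9 that did not pass were DUSP11, DUSP13, DUSP14, DUSP18, DUSP19, DUSP21, DUSP26, DUSP27 and DUSP28, with differences between -0.24 and 0.44. DUSP14, with signals from 10.96 to 11.06 over all 6 libraries, was the flattest member (95% interval -0.20 to 0.19). DUSP13, DUSP21 and DUSP28 lay below the first quartile of all rows. DUSP27, which lacks a working catalytic site, stood at 0.44 (adjusted p = 0.11), and gained a call when anti-PD-1 replicate 3 was left out (adjusted p = 0.049).

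Of 4 Sprouty genes 1 fell, 1 rose and 2 did not pass, beside 29.8% of all rows called. SPRY4, an inhibitor that blocks the route between receptors and RAF, had signals of 7.34, 8.12 and 8.25 in control and 4.61, 4.03 and 4.31 in anti-PD-1 libraries. It fell by 3.59 on the log2 scale (SE 0.26, adjusted p = 0.000111), 12.0-fold and the largest change of the family, at place 8 among the falls of all 21448 rows. All 3 anti-PD-1 signals lay below the first quartile of all rows, and with no background measurement the fold and the place rest on a level not shown to be above background. Control replicate 1 was the lowest of its group. The authors' deposited table gave a 14.65-fold difference for SPRY4, and there the averages named C and P were 4.31 and 8.19. The file places SPRY4 on chromosome 5 from 142310427 to 142326455 (build unsettled), whereas the mouse gene is on chromosome 18.

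SPRY1 went the other way, with signals of 8.44, 8.46 and 8.69 in control and 8.88, 9.36 and 9.15 in anti-PD-1 libraries (0.60 ± 0.14, adjusted p = 0.0196). Its call was lost without control replicate 1 or 2 or anti-PD-1 replicate 2 or 3 (adjusted p between 0.0561 and 0.0634). SPRY2, which binds the ubiquitin ligase CBL, had signals of 7.47, 7.33 and 7.20 against 7.54, 7.51 and 7.53. The groups stood apart by a narrow margin, but the difference of 0.19 ± 0.10 did not pass (adjusted p = 0.194, 95% interval -0.04 to 0.42). SPRY3 was dim, with signals from 3.23 to 3.53, and did not pass (0.14 ± 0.09, adjusted p = 0.301).

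All 3 Spred genes fell, where lower calls were 15.1% of all rows. SPRED2 had signals of 11.01, 11.20 and 11.05 in control and 10.34, 9.87 and 10.03 in anti-PD-1 libraries (-1.01 ± 0.14, adjusted p = 0.00174). SPRED1, which brings the RAS inhibitor neurofibromin to the membrane, had 10.11, 10.51 and 9.97 against 9.60, 9.51 and 9.37 (-0.70 ± 0.15, adjusted p = 0.0134). SPRED3 had 4.65, 4.87 and 4.83 against 3.41, 2.95 and 3.37 (-1.54 ± 0.15, adjusted p = 0.000325). In each of them the anti-PD-1 libraries lay below the control libraries without overlap, as in 21.9% of all rows. SPRED3 lay below the first quartile of all rows, and no background measurement was used here. All 3 calls held without any 1 library, with adjusted p of at most 0.0485.

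**Figure D3:**
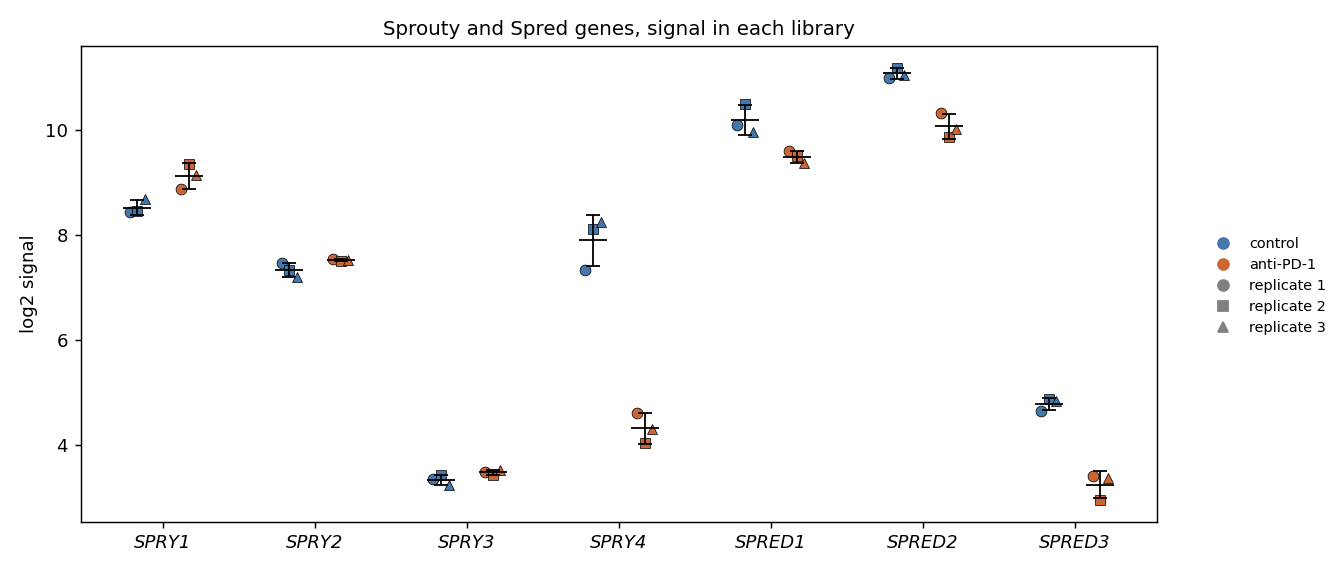
Log2 signal of the 4 Sprouty and 3 Spred genes in each of the 6 libraries (points, shape by replicate number) with the group mean and SD (bars). Every anti-PD-1 point of SPRY4 and the Spred genes lies below every control point of the same gene, those of SPRY1 lie above, and SPRY3 stays between 3.23 and 3.53; levels are not comparable between genes.

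The members were then set beside other genes of the ERK route. Transcription factors that ERK phosphorylates or induces had a median of -0.42, and 10 of 18 fell (15.1% of all rows did) while the other 8 did not pass. The largest falls were in EGR1, a zinc finger factor of the early response (-4.25 ± 0.13), FOSL1, a subunit of AP-1 (-3.81 ± 0.10), and ETV1 (-3.68 ± 0.08). ETV4 (-3.07 ± 0.12) and ETV5 (-2.62 ± 0.11), which with ETV1 make up the PEA3 group of ETS factors, also fell. EGR1 signals were 11.97, 11.72 and 11.95 in control and 7.87, 7.47 and 7.56 in anti-PD-1 libraries. FOS (-0.27), JUN (0.11) and MYC (0.22) did not pass.

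Of 24 other genes known to be induced by ERK 16 fell and 2 rose, against 15.1% and 14.7% of all rows, with a median of -0.78. PHLDA1, an apoptosis regulator often counted in scores of MAP kinase output (-2.81 ± 0.10), EREG, a ligand of the EGF receptor (-2.76 ± 0.11), and EPHA2, an ephrin receptor (-2.19 ± 0.12), fell most. CCND1, the D-type cyclin that ERK sustains, fell by 1.46 on the log2 scale. Those that rose were HBEGF, another EGF receptor ligand (2.32 ± 0.10), and EPHA4 (1.07 ± 0.12). HBEGF signals were 9.82, 9.67 and 9.60 in control and 12.12, 11.96 and 11.96 in anti-PD-1 libraries.

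Of 16 genes of the RAS, RAF, MEK and ERK core 5 rose and 2 fell, against 14.7% and 15.1% of all rows, with a median of 0.08. Since 15 of the 16 lay above the median signal, those shares are not a like comparison. With rows below the median left out, 3041 of 10725 rows rose and 3399 fell. No result about the core as a set is drawn from the counts. The rises were led by the RAS relatives MRAS (2.75 ± 0.17), RRAS (0.97 ± 0.15) and RRAS2 (0.67 ± 0.09), and the falls were KSR1, a scaffold of the relay (-0.82 ± 0.19), and MAP2K1, which encodes MEK1 (-0.33 ± 0.08). HRAS is among the rows in which averages and signals conflict, and no direction is drawn from it.

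Upstream of RAS, 5 of 11 adaptors and exchange factors rose, against 14.7% of all rows, and the other 6 did not pass (median 0.11). RASGRP1, an exchange factor that loads RAS with GTP, went from signals of 5.49, 6.15 and 6.02 to 9.40, 9.62 and 9.46 (3.61 ± 0.18). The docking proteins GAB1 (1.65 ± 0.11) and GAB2 (1.39 ± 0.16) rose too, GAB2 from control signals below the first quartile of all rows. SOS1 and SOS2 are rows in conflict.

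Of 15 measured negative regulators outside the family 5 rose and 2 fell, against 14.7% and 15.1% of all rows, with a median of 0.30. The ubiquitin ligase CBLB (1.40 ± 0.10), LRIG1, which restrains ERBB receptors (0.88 ± 0.09), and the phosphatase PTPRE (0.70 ± 0.18) rose most. ERRFI1, a feedback inhibitor of the EGF receptor (-0.86 ± 0.09), and RASA1, a GTPase-activating protein of RAS (-0.62 ± 0.14), fell. NF1, which encodes neurofibromin, did not pass (0.23, adjusted p = 0.138).

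**Figure D4:**
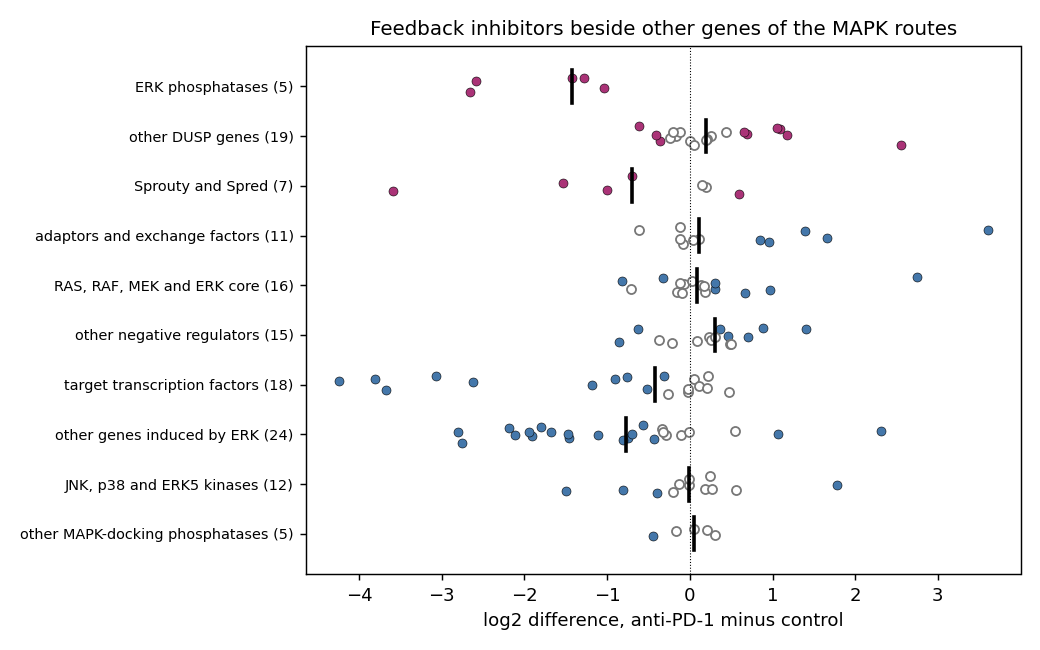
Log2 difference, anti-PD-1 minus control, of each gene in 3 sets of the family (purple) and 7 lists of other genes of the MAP kinase routes (blue), with filled points past an adjusted p of 0.05, open points not past it and a black bar at the median. The medians of the ERK phosphatases (-1.42), Sprouty and Spred genes (-0.70), target transcription factors (-0.42) and other ERK-induced genes (-0.78) lie to the left of 0, and those of adaptors (0.11) and core kinases (0.08) lie near it.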

How the data were processed

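RNA (250 ng input, per the labels) was measured on 6 arrays. Per the file headers, the values are log2 signals from the authors' gene-level SST-RMA. Transcriptome Analysis Console, with no version, is listed in the submitters' processing notes. Beside the signals, the deposited table holds log2 averages, a signed fold change (treated as a score) and p-values with false discovery rates, per the file headers. Of 22206 identifiers 21448 had values. Groups follow the sample labels.

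Differences, anti-PD-1 minus control, were tested on all rows in limma (version 3.58.1, R version 4.3.3) by a 2-sided moderated test with group as the only factor, and adjusted by Benjamini-Hochberg over all rows, at a threshold of 0.05. The fit was tested on simulated data. Errors of differences are limma's SE with 3 libraries a group. Averages were compared with a Tukey biweight of the signals (tolerance 0.05, and 0.02 for SDs). Signals are rounded to 2 decimals, no scanner intensity was used, and the number of arrays limits the precision.

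The members, their roles, the lists and the motifs were chosen with earlier results of these data known, so no list was tested. Named were all members and, per list, up to 3 largest rises and falls past the threshold, with genes a result turns on. FOS, JUN, MYC, CCND1, NF1, ETV4 and ETV5 were added for their place in the route. Genes of the lists without a row of their own were not analysed here, and some items are not reported here. Alternatives were other normalizations, filters, priors, thresholds, weights, rows and left-out libraries.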

Additional observations from a re-analysis of the deposited data

How the results depend on the processing

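Leaving out 1 library at a time gave 17 to 18 changed members, 5 changed ERK phosphatases each time, 12 to 13 other changed members, 41 to 47 changed genes of the lists and 4901 to 5452 changed rows. Libraries of the same replicate number did not deviate together (correlations 0.013, -0.024 and 0.013), so no pairing is assumed, and a replicate block gave 19 members, 5 ERK phosphatases, 14 other members, 45 genes of the lists and 5363 rows. At least 2-fold at an unadjusted p under 0.05, a rule with a fold limit and a looser p, were 12 members (4 higher, 8 lower), 7 of them outside the ERK phosphatases, 26 genes of the lists and 1645 rows, and with a limit of 1.5-fold at the adjusted threshold 3705 rows remained. The other counts stayed within 1.5 times the main ones. Some values of single members could not change. The series values equal the signals used (largest difference 0.0), and row filters and priors leave a difference and its sign as they were. The second SPRY3 row repeats the signals of the first, and the DUSP16 row with a chromosome is counted under both of its settings. The tally that follows thus overstates how stable the values are. Of 487 values of single members under the alternatives other than the exchange of names, 465 kept their direction and their side of the threshold, 14 lost their call, 2 gained one and 6 changed sign. The 6 belong to DUSP14 (0.011 with quantile normalization, and 0.025, 0.0017 and 0.017 without control replicate 2 and anti-PD-1 replicates 2 and 3) and DUSP26 (-0.072 and -0.010 without control replicate 3 and anti-PD-1 replicate 2), with ranges over the left-out libraries of -0.028 to 0.025 and -0.072 to 0.14; neither passed, and the cause was not tested. DUSP11 gained a call with rows below the median left out (adjusted p = 0.0471), where fewer rows are tested. The row of DUSP16 with a chromosome was added after seeing the data. Exchanging the names of the groups turns each sign by construction: DUSP4 1.42, DUSP5 2.59, DUSP6 2.66, DUSP7 1.04, DUSP9 1.28, DUSP1 -1.18, DUSP2 -0.26, DUSP8 -1.09, DUSP10 0.37, DUSP16 -1.05, DUSP3 -0.69, DUSP11 0.17, DUSP12 0.41, DUSP13 0.24, DUSP14 0.0033, DUSP15 -2.55, DUSP18 0.12, DUSP19 -0.21, DUSP21 -0.20, DUSP22 -0.66, DUSP23 0.62, DUSP26 -0.053, DUSP27 -0.44, DUSP28 0.21, SPRY1 -0.60, SPRY2 -0.19, SPRY3 -0.14, SPRY4 3.59, SPRED1 0.70, SPRED2 1.01, SPRED3 1.54. Median centring moved the median of all rows by -0.05. Array weights gave 19 members and 6464 rows.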

Other observations

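Kinases on which several of the phosphatases act were measured too. Of 12 genes of the JNK, p38 and ERK5 routes 1 rose and 3 fell, with a median of -0.01; 29.8% of all rows were called, so the share is near that of all rows. The JNK genes MAPK8 (-0.01 ± 0.10, adjusted p = 0.941) and MAPK9 (-0.21 ± 0.08, adjusted p = 0.1) did not pass, and neither did MAPK14, the main p38 gene (0.27 ± 0.12, adjusted p = 0.131). MAPK10, a JNK best known from neurons, rose from a mean signal of 4.39 to 6.17 (1.78 ± 0.19, adjusted p = 0.000506). Its control signals lay below the first quartile of all rows. MAPK13, the p38 form of epithelia, fell from 9.63 to 8.12 (-1.50 ± 0.10, adjusted p = 7.94e-05). MAP2K3, a kinase that activates p38, fell by 0.80 on the log2 scale and MAPK12, another p38 gene, by 0.39.

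Among 5 genes for other phosphatases and pseudophosphatases with ties to MAP kinases, STYXL1 fell (-0.45 ± 0.09, adjusted p = 0.0109). That 1 call of 5 is near the 15.1% of all rows that fell. PTPN5, PTPN7, PTPRR and STYX did not pass.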
